A study of Mus musculus with 4 samples.

Results

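The 10 genes described here make, sense or break down prostaglandins: Ptgs1, Ptgs2, Ptges, Ptges2, Ptges3, Tbxas1, Hpgds, Ptger2, Ptger4 and Hpgd. They were taken by name from the gene table, and 10 of its 12584 genes were members. They were measured in single cells of YUMM1.7-OVA melanomas, a mouse line with mutant Braf and without Cdkn2a that carries the model antigen ovalbumin, in its RTT form, which was selected for resistance to a BRAF inhibitor and kept in dabrafenib. The tumours grew in Rag2-/- mice of 6 to 12 weeks, which have no T or B cells of their own. All mice received OT-1Luc CD8+ T cells, which recognise the ovalbumin peptide, on day 7, and tumours were collected on day 10, 72 h later. Live CD45+ cells were sorted and fixed. The group called CTRL (Y1.7_RTT_mCherry_CTRL) carried an mCherry vector, and the IRF3/7 group (Y1.7_RTT_IRF3/7_OE) carried cancer cells forced to express Irf3 and Irf7. The other groups grew the mCherry line in mice given celecoxib, an inhibitor of the COX2 enzyme, by daily gavage at 30 mg per kg from day 3 (COX2i), or the same with 5-azacytidine, a DNA methylation inhibitor, injected at 1 mg per kg every 3 days (COX2i + 5-AZA). Each group was 1 library of 3 pooled tumours. There were no replicate libraries, so no difference between groups could be tested, and every interval below is an exact 95% interval that covers counting error only.

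Prostaglandins are short-lived lipid mediators made from arachidonic acid, which phospholipases cut from membranes. The cyclooxygenases COX1 (Ptgs1, usually constitutive) and COX2 (Ptgs2, induced by inflammatory signals) turn it into prostaglandin H2, and terminal synthases turn that into prostaglandin E2 (PGE2), prostaglandin D2 or thromboxane. PGE2 acts on macrophages, dendritic cells and lymphocytes through the receptors EP2 and EP4, which raise cyclic AMP, and 15-hydroxyprostaglandin dehydrogenase (Hpgd) inactivates it. Celecoxib blocks the COX2 protein, so its effect on the enzyme is not read by mRNA.

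Because the libraries differed in Ptgs2, Ptges and Ptgs1 beyond counting error, the 250 bases before their RefSeq starts are shown (GRCm38.p6). Capitals mark the motifs found in them, GGGCGG (GC box) and TTGCGCAA (a C/EBP palindrome). The Ptgs2 stretch is chr1:150099781-150100030 on the plus strand, the Ptges stretch chr2:30903298-30903547 on the minus strand and the Ptgs1 stretch chr2:36230176-36230425 on the plus strand.
Ptgs2: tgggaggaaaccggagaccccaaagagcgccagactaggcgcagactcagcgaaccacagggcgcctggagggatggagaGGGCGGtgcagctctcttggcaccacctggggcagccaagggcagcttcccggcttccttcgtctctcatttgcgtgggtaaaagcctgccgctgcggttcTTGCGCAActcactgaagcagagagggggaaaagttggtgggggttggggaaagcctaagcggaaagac
Ptges: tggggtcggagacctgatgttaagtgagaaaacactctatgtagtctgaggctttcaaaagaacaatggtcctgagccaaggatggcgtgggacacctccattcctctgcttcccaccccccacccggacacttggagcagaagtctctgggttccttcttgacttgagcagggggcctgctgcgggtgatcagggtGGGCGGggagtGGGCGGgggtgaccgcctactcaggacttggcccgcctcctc
Ptgs1: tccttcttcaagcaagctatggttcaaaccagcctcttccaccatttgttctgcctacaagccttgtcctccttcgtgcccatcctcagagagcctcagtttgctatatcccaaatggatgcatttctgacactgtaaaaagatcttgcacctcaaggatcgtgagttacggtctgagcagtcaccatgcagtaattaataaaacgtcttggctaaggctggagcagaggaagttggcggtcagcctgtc
A set of 6 motifs was searched on both strands of the 300 bases from 250 before to 50 after the start. Ptgs2 held the C/EBP palindrome, which was in 60 of 32851 promoters (0.183%). It also held a cyclic AMP response element half-site, CGTCA (20.8% of promoters), and an E-box, CACGTG (7.15%), which share 2 bases and begin 14 bases after the start. These lie in chr1:150100034-150100061, plus strand, shown with the joint match in capitals.
Ptgs2 site: gtcaccactaCGTCACGTGgagtccgct
GGGCGG was in 5 of the 10 members (Ptgs2, Ptges, Ptges3, Ptger4 and Hpgd) and in 35.7% of promoters, with 2 copies before Ptges. CGTCA was also in Ptges3 and CACGTG in Ptges2. TATAAA was in Tbxas1 and Hpgd (13.6% of promoters), and the core of the interferon-stimulated response element was in 0 members (3.44%). The Ptgs1 window held none of the 6.

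The libraries held 6329 to 10032 cells and 26356819 to 78722763 unique molecular identifiers (UMIs, counted molecules), 34447 cells in all. IRF3/7 was the shallowest, with a median of 3168 UMIs per cell against 6039.5 to 7502 in the others. Cells were named by the authors in 17 classes, and classes are called by those names here. Of 29259 droplet barcodes, 4830 (16.5%) occurred in more than 1 library. Levels are UMIs of a gene per 1000000 UMIs of the summed cells (CPM), and a class is described in a library only where it had at least 50 cells. Levels of different genes are not compared, since each was read by its own probes. Each of the 10 members reached 20 UMIs in the monocytes and macrophages of every library.

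The class named Myofibrobl held 554 cells in CTRL, 172 in IRF3/7, 913 in COX2i and 160 in COX2i + 5-AZA, and it needed a check because a sort for CD45 should not hold it. Its collagen-pathway markers Col1a2, Col3a1, Sparc and Serpinh1 were at their highest there among all classes, and Ptprc, which encodes CD45, stood at 18.3 to 37.4 CPM against 1491 CPM in NK cells. The myofibroblast markers Acta2, Tagln and Myl9, looked up after their values had been seen, were at only 4.77 to 20.4 CPM. The mesenchymal genes Pdgfra (289 to 520 CPM) and Prrx1 (334 to 742 CPM) and the transcription factor gene Sox9 (395 to 664 CPM), looked up in the same way, were high there. In IRF3/7 the class held the forced genes: Irf3 stood at 584 CPM against 31.2 CPM in CTRL, with a UMI in 159 of its 172 cells, while monocytes and macrophages stood at 44.6 against 43 CPM. Irf7 stood at 14910 against 8.2 CPM in the class, with a UMI in 170 of the 172 cells, but also at 3170 against 69.3 CPM in monocytes and macrophages. The class also held 4 macrophage markers that define TAM_C1q, none at 0. In CTRL, IRF3/7, COX2i and COX2i + 5-AZA, Fcrls stood in it at 171, 0.446, 331 and 34.8 CPM, Mrc1 at 154, 3.35, 211 and 115 CPM, C1qa at 388, 35.9, 481 and 342 CPM, and Apoe at 1663, 174, 776 and 233 CPM. They were lowest in IRF3/7. Since the factors were forced in cancer cells, the class may hold cancer cells. In IRF3/7, 162 of its cells had Irf7 at 1000 CPM or more, with Ptges at 1205, Ptgs2 at 3485 and Ptgs1 at 463 CPM. The other 10 cells had 71, 369 and 56.8 CPM. Monocytes and macrophages of that library averaged above this limit too, so it does not by itself mark the forced gene. In the other libraries neither gene was forced. These values do not sort single cells of the class into cancer and stromal cells. The Ptges, Ptgs2 and Ptgs1 of Myofibrobl are therefore given only as those of the deposited class. The melanocyte gene Pmel was at most at 1.34 CPM in Myofibrobl, and the other melanoma markers listed, Tyr, Mlana, Dct and Sox10, had no values in these data. In monocytes and macrophages 3 endothelial markers summed to 15.4 to 133 CPM, 2 basophil markers to at most 2.31 CPM and 2 B cell markers to at most 1.18 CPM.

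The members fell into different classes. Ptges was mostly in Myofibrobl. Ptgs2 had its highest class median in neutrophils and reached high levels in TAM_Spp1, Myofibrobl and monocytes. Tbxas1 was spread over macrophages, while Hpgds was in some of them, with its highest class median in TAM_C1q and a low level in TAM_Spp1. Ptger4 was highest in the DC3 class (CCR7+ dendritic cells) and Ptger2 in cDC1. The heatmap of members by class shows this division.

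**Figure D1:**
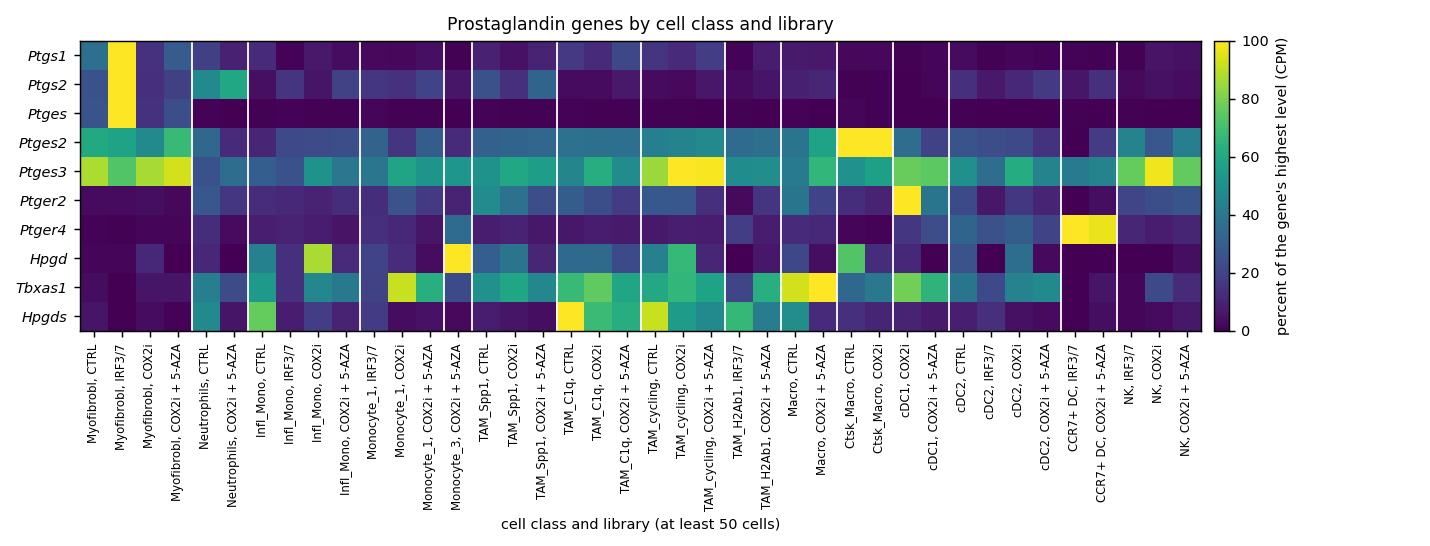
Level of each of the 10 genes (rows) in each cell class and library with at least 50 cells (columns, 40 in all), as percent of the gene's own highest level in CPM. Colours compare classes within a row only; Ptgs1, Ptgs2 and Ptges peak in Myofibrobl of IRF3/7, Ptger4 in CCR7+ DC and Hpgds in TAM_C1q of CTRL.

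Ptgs2 (ENSMUSG00000032487, chromosome 1, 150100031 to 150108227, plus strand, GRCm38), the inducible cyclooxygenase and the target of celecoxib, had its highest median over libraries in neutrophils. It stood there at 1649 CPM (1508 to 1798) in CTRL and 2046 CPM (1943 to 2153) in COX2i + 5-AZA, a range that did not overlap that of the next class, although Myofibrobl of IRF3/7 stood higher. Neutrophils were few, and their 65 and 196 cells held 2.17% and 4.1% of the Ptgs2 UMIs of those libraries. TAM_Spp1, the macrophages named for osteopontin, came next with 857 CPM in CTRL, 457 CPM in COX2i and 1108 CPM in COX2i + 5-AZA. Myofibrobl cells stood at 861, 3436, 457 and 653 CPM in CTRL, IRF3/7, COX2i and COX2i + 5-AZA. The ranges of TAM_Spp1, Myofibrobl and Monocyte_1 (496 to 694 CPM) overlapped, so their order was not resolved. Other macrophages were lower: TAM_C1q, the complement-expressing macrophages, ranged from 94.5 to 231 CPM and TAM_cycling from 84.2 to 217 CPM. The lowest levels were in Ctsk_Macro (22.1 and 24.6 CPM) and in cDC1 (11.1 and 66.3 CPM). No Ptgs2 UMI was seen in the 16 CD8+ T cells, which allows up to 28.4 CPM.

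Within a class, not every cell had a Ptgs2 UMI. In TAM_Spp1 of CTRL, 48.8% of cells had a UMI, and 39.8% did when each cell was thinned to 2000 UMIs. In Ctsk_Macro, where the gene was near its lowest and the median depth was 9304.5 UMIs against 4047 in TAM_Spp1, the shares were 15% and 5.09%. In TAM_Spp1 the share was 36.5% in COX2i and 66.2% in COX2i + 5-AZA, and 27.7% and 53.5% when thinned. In TAM_C1q it was 25.6%, 18.5% and 38% in CTRL, COX2i and COX2i + 5-AZA, and 11.7%, 8.32% and 20.1% when thinned. In both classes COX2i had the lowest and COX2i + 5-AZA the highest share, with all UMIs and with thinned cells.

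Ptgs1 (ENSMUSG00000047250, chromosome 2, 36230426 to 36252272, plus strand), the constitutive cyclooxygenase, was found in Myofibrobl (64.8 to 457 CPM), TAM_C1q (56.4 to 99.8 CPM) and TAM_cycling (54 to 83.7 CPM), whose ranges overlapped. It was lower in TAM_Spp1 (21.8 to 45.9 CPM), where Ptgs2 was near its highest, and in Monocyte_1 (8.98 to 18.3 CPM). Mast cells, known makers of prostaglandin D2, were only 77 over the 4 libraries and held 142 Ptgs1 UMIs, at 218 CPM (184 to 257), with a UMI in 68.8% of cells.

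Ptges (ENSMUSG00000050737, chromosome 2, 30889471 to 30929863, minus strand), the inducible synthase that works with COX2 to make PGE2, stood at 310 CPM (299 to 322) in Myofibrobl of CTRL. There it was at 1187 CPM (1155 to 1219) in IRF3/7, 172 CPM (165 to 180) in COX2i and 284 CPM (264 to 304) in COX2i + 5-AZA. These 4 values did not overlap those of any other class, none of which passed 17 CPM. Over all cells other than Myofibrobl, Ptges was at 0.732% to 3.51% of its Myofibrobl level. The collagen-pathway genes that define Myofibrobl were at 0.411% to 2.67% of theirs in the same cells. In each library but IRF3/7 Ptges lay above all 4 of them (3.51% against 2.1% to 2.67% in CTRL). Ptgs2 was at 12.4% to 71.1% of its Myofibrobl level. Ptgs1 was at 36.6% to 70.8% in the libraries other than IRF3/7, and at 1.21% in IRF3/7, where the collagen-pathway genes were at 0.411% to 0.786%. Among immune cells of IRF3/7, 2.98% of Infl_Mono (2.49 to 3.53) had a Ptges UMI at a median depth of 3076 UMIs. Of NK cells, which are not known to make PGE2, 2.82% (1.62 to 4.53) had one at 2674.5 UMIs, so the classes could not be told apart at this depth. In COX2i + 5-AZA, 0.915% of NK cells (0.25 to 2.33) had one at 2606 UMIs, against 2.75% of Monocyte_1 (2.24 to 3.33) at 5115 UMIs and 3.97% of TAM_Spp1 (2.76 to 5.50) at 5417 UMIs. Their levels there were 2.11 CPM (0.575 to 5.40) in NK cells, 5.69 CPM (4.72 to 6.80) in Monocyte_1 and 7.15 CPM (5.01 to 9.90) in TAM_Spp1. The 50 NK cells of COX2i had 0 UMIs, which allows up to 14.5 CPM. In CTRL, 9.13% of TAM_C1q cells had one at 6857 UMIs, 3.19% when thinned, and CTRL had too few NK cells to compare. The 4 collagen-pathway genes summed to 248, 45.2, 332 and 103 CPM in monocytes and macrophages of CTRL, IRF3/7, COX2i and COX2i + 5-AZA, and the part of free RNA in the Ptges seen there was not tested.

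The Myofibrobl class was 6.19% of CTRL cells and held 14.2% of all UMIs there, but 82.5% of those of Ptges, 35.4% of those of Ptgs2 and 31.1% of those of Ptgs1. In IRF3/7 its 2.72% of cells held 96.6%, 62.3% and 94.4%. In COX2i its 10% of cells held 84.2%, 34.4% and 19.8%, and in COX2i + 5-AZA its 1.59% held 70.1%, 5.11% and 8.68%. Monocytes and macrophages held most of the rest. The plot of UMI shares by cell group shows that the receptors, Hpgd, Tbxas1 and Hpgds were little seen in Myofibrobl, which held at most 5.13% of their UMIs.

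**Figure D2:**
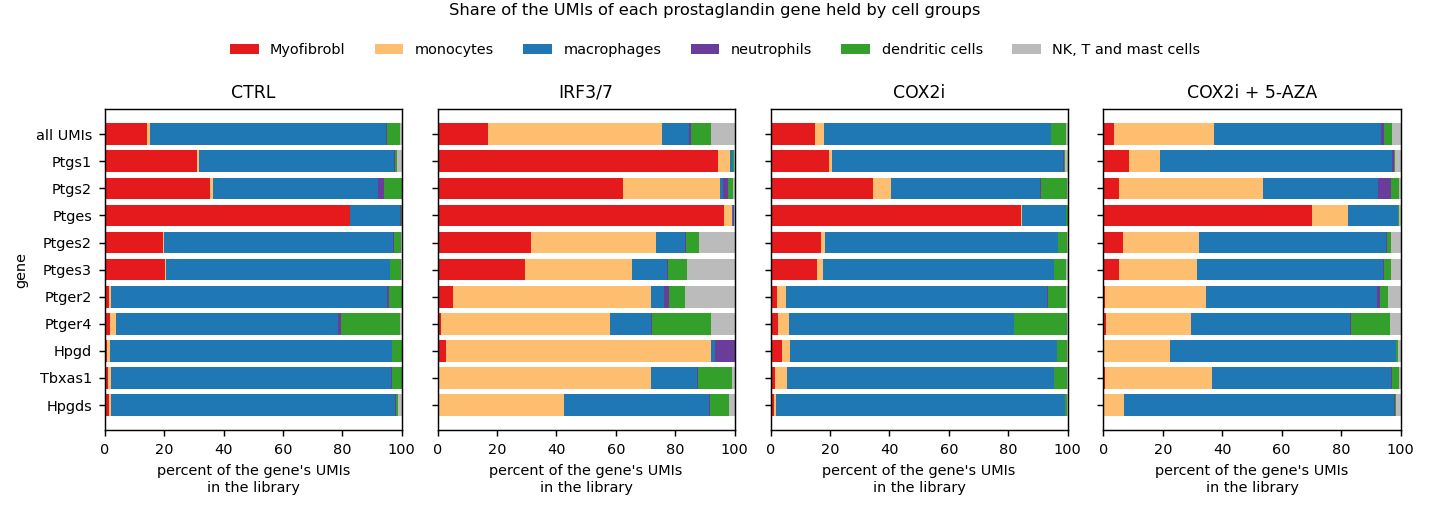
Share of each gene's UMIs (percent, bars from 0 to 100) held by 6 groups of cells in each library, with the share of all UMIs in the top bar. Myofibrobl holds 70.1% to 96.6% of Ptges UMIs, and the largest share of Ptgs2 UMIs is that of macrophages in CTRL (55.4%) and of monocytes in COX2i + 5-AZA (48.5%).

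A cyclooxygenase and Ptges were counted in the same Myofibrobl cell. Both were detected in 79.2% of these cells in CTRL, 92.4% in IRF3/7, 52.5% in COX2i and 73.8% in COX2i + 5-AZA. After thinning to 2000 UMIs the shares were 26.2% (22.6 to 30.2), 72.4% (65 to 78.9), 11.7% (9.61 to 14) and 22% (15.8 to 29.3). In TAM_Spp1, which had about as much Ptgs2 as Myofibrobl in CTRL, both were detected in 2.64%, and in 1.02% when thinned. The order of the Myofibrobl shares was the same with all UMIs and with thinned cells. In thinned cells Ptgs2 was in 58.9% of those with Ptges and 53.9% of those without in CTRL, in 96% and 66.7% in IRF3/7, in 39.6% and 30.3% in COX2i, and in 44.3% and 50% in COX2i + 5-AZA. With all UMIs the shares were 86.4% and 61% in CTRL, 96.3% and 36.4% in IRF3/7, 64.5% and 43.9% in COX2i, and 80.6% and 54.8% in COX2i + 5-AZA. The gap between cells with and without Ptges was thus smaller after thinning in each library, and turned round in COX2i + 5-AZA.

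**Figure D3:**
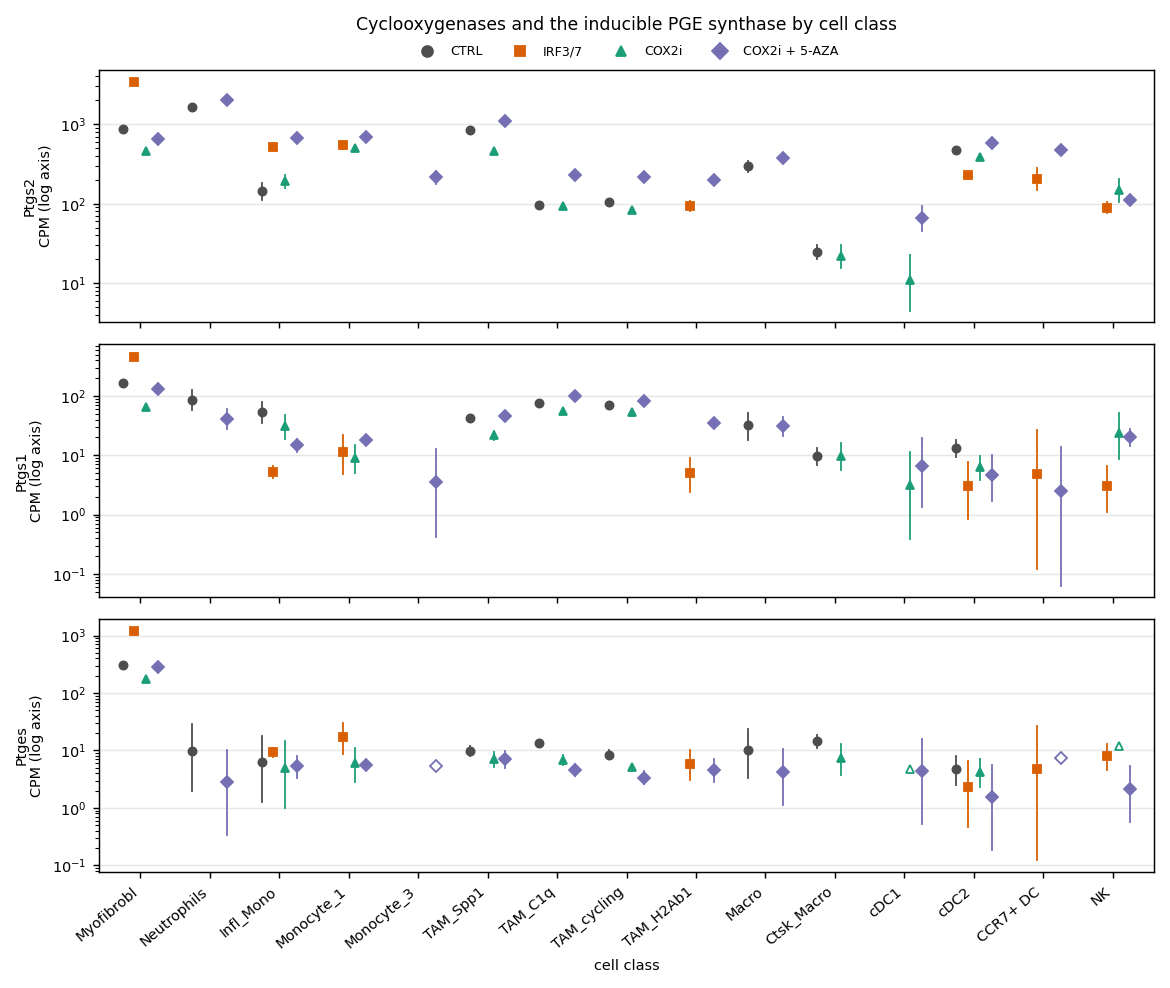
Level of Ptgs2, Ptgs1 and Ptges in CPM (log axes) in each class with at least 50 cells, by library; vertical lines are exact 95% counting intervals and open symbols mark 0 UMIs, drawn at the level of 3 UMIs. Ptgs2 is widespread with its highest immune level in neutrophils, and Ptges stands apart in Myofibrobl.

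The other PGE synthases were broad. Ptges2 (ENSMUSG00000026820, chromosome 2, 32395896 to 32405772, plus strand), a membrane-associated synthase not tied to COX2 induction, was highest in Ctsk_Macro at 57.7 and 57.8 CPM in CTRL and COX2i, above the range of the next class, Myofibrobl (27.5 to 39.1 CPM). Ptges3 (ENSMUSG00000071072, chromosome 10, 128058954 to 128077272, plus strand), a cytosolic synthase better known as the HSP90 cochaperone p23, was, among classes with at least 50 cells, highest in TAM_cycling (218 to 257 CPM), Myofibrobl (187 to 239 CPM) and NK cells (195 to 251 CPM), with overlapping ranges. In neutrophils it was low, at 64.8 and 91.6 CPM, and the 16 CD8+ T cells, below that limit, held 66 UMIs of it, at 509 CPM (393 to 647), above each of these ranges.

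Tbxas1 (ENSMUSG00000029925, chromosome 6, 38875404 to 39084585, plus strand), thromboxane synthase, was highest in the class called Macro (329 and 353 CPM), above the ranges of cDC1 (230 and 278 CPM) and TAM_C1q (210 to 267 CPM). Monocyte_1 varied between libraries, from 69.2 CPM in IRF3/7 to 323 CPM (297 to 352) in COX2i, the latter within counting error of Macro. TAM_cycling stood at 205 to 235 CPM and TAM_Spp1 at 164 to 209 CPM. It was low in Myofibrobl (1.12 to 20.2 CPM), and in DC3 it had 0 UMIs in IRF3/7 and 8 in COX2i + 5-AZA. Among classes present in IRF3/7 it was low throughout, at 48.5 CPM in Infl_Mono, 69.2 CPM in Monocyte_1, 73.6 CPM in TAM_H2Ab1 and 77.8 CPM in cDC2.

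Hpgds (ENSMUSG00000029919, chromosome 6, 65117293 to 65144908, minus strand), which makes prostaglandin D2 in blood-derived cells, marked a subset of macrophages. TAM_C1q stood at 278, 190 and 173 CPM in CTRL, COX2i and COX2i + 5-AZA, TAM_cycling at 255, 152 and 132 CPM, and TAM_H2Ab1 at 185 CPM in IRF3/7 and 117 CPM in COX2i + 5-AZA. Infl_Mono stood at 213 CPM (174 to 258) in CTRL, from 93 cells, and at 22.1 to 50.8 CPM in the other libraries. TAM_Spp1 was far lower than TAM_C1q, at 22.6, 15.8 and 10.1 CPM in CTRL, COX2i and COX2i + 5-AZA. Within each of these 3 libraries TAM_Spp1 and TAM_C1q therefore differed in opposite ways in Ptgs2 and Hpgds. The 77 mast cells held 230 Hpgds UMIs, 353 CPM (309 to 402), in 85.7% of cells.

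Ptger4 (ENSMUSG00000039942, chromosome 15, 5206661 to 5244187, minus strand) encodes EP4. It was highest in DC3, at 442 CPM (357 to 543) in IRF3/7 and 430 CPM (368 to 499) in COX2i + 5-AZA, with no overlap with any other class. A UMI was found in 63.6% and 78.2% of those cells, and in 53.6% and 47.6% after thinning. In Myofibrobl, where the gene was near its lowest (3.35 to 7.46 CPM), 5.81% and 9.38% had one in the same libraries, at median depths of 20862.5 and 15211.5 UMIs against 2834.5 and 4048 in DC3. Monocyte_3 followed at 155 CPM (124 to 190) in the one library where it had enough cells, then cDC2 with 143, 110, 130 and 91.5 CPM in CTRL, IRF3/7, COX2i and COX2i + 5-AZA. The ranges of cDC2 and cDC1 (69.9 and 104 CPM) overlapped. Among macrophages, TAM_C1q, TAM_cycling and TAM_Spp1 lay between 28 and 42.7 CPM, and Ctsk_Macro stood at 6.03 and 4.92 CPM in CTRL and COX2i, near the level in Myofibrobl. In CTRL and COX2i, DC3 held only 10 and 28 cells, with 14 and 36 Ptger4 UMIs.

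Ptger2 (ENSMUSG00000037759, chromosome 14, 44988195 to 45003820, plus strand) encodes EP2, and its pattern differed from that of Ptger4. Its highest class was cDC1, at 130 CPM (104 to 162) in COX2i and 50.9 CPM (32.2 to 76.3) in COX2i + 5-AZA. TAM_Spp1 followed at 62.9, 49.2 and 31 CPM in CTRL, COX2i and COX2i + 5-AZA, overlapping cDC1. DC3, where Ptger4 peaked, had 0 Ptger2 UMIs in IRF3/7, which allows up to 17.7 CPM, and 2 in COX2i + 5-AZA. NK cells ranged from 27.4 to 33.7 CPM, and the 16 CD8+ T cells held 8 UMIs of Ptger2 and 3 of Ptger4. TAM_Spp1, high in Ptgs2, thus held mRNA of both receptors, whereas Myofibrobl stood at only 2.84 to 4.79 CPM of Ptger2.

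Hpgd (ENSMUSG00000031613, chromosome 8, 56294585 to 56321043, plus strand), which inactivates PGE2, was sparse everywhere. Monocyte_3 stood at 28.1 CPM (16.1 to 45.6) from 16 UMIs, and Infl_Mono of COX2i at 24.6 CPM (13.7 to 40.5) from 15 UMIs. TAM_cycling stood at 12.3 CPM in CTRL, 18.8 CPM in COX2i and 3.05 CPM in COX2i + 5-AZA. Ctsk_Macro stood at 20.5 CPM in CTRL and 3.69 CPM in COX2i, and TAM_C1q at 6.36 to 9.66 CPM. No more than 11.4% of the cells of any class and library had a UMI of it. Hpgd and Ptges thus had their highest levels in different classes.

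**Figure D4:**
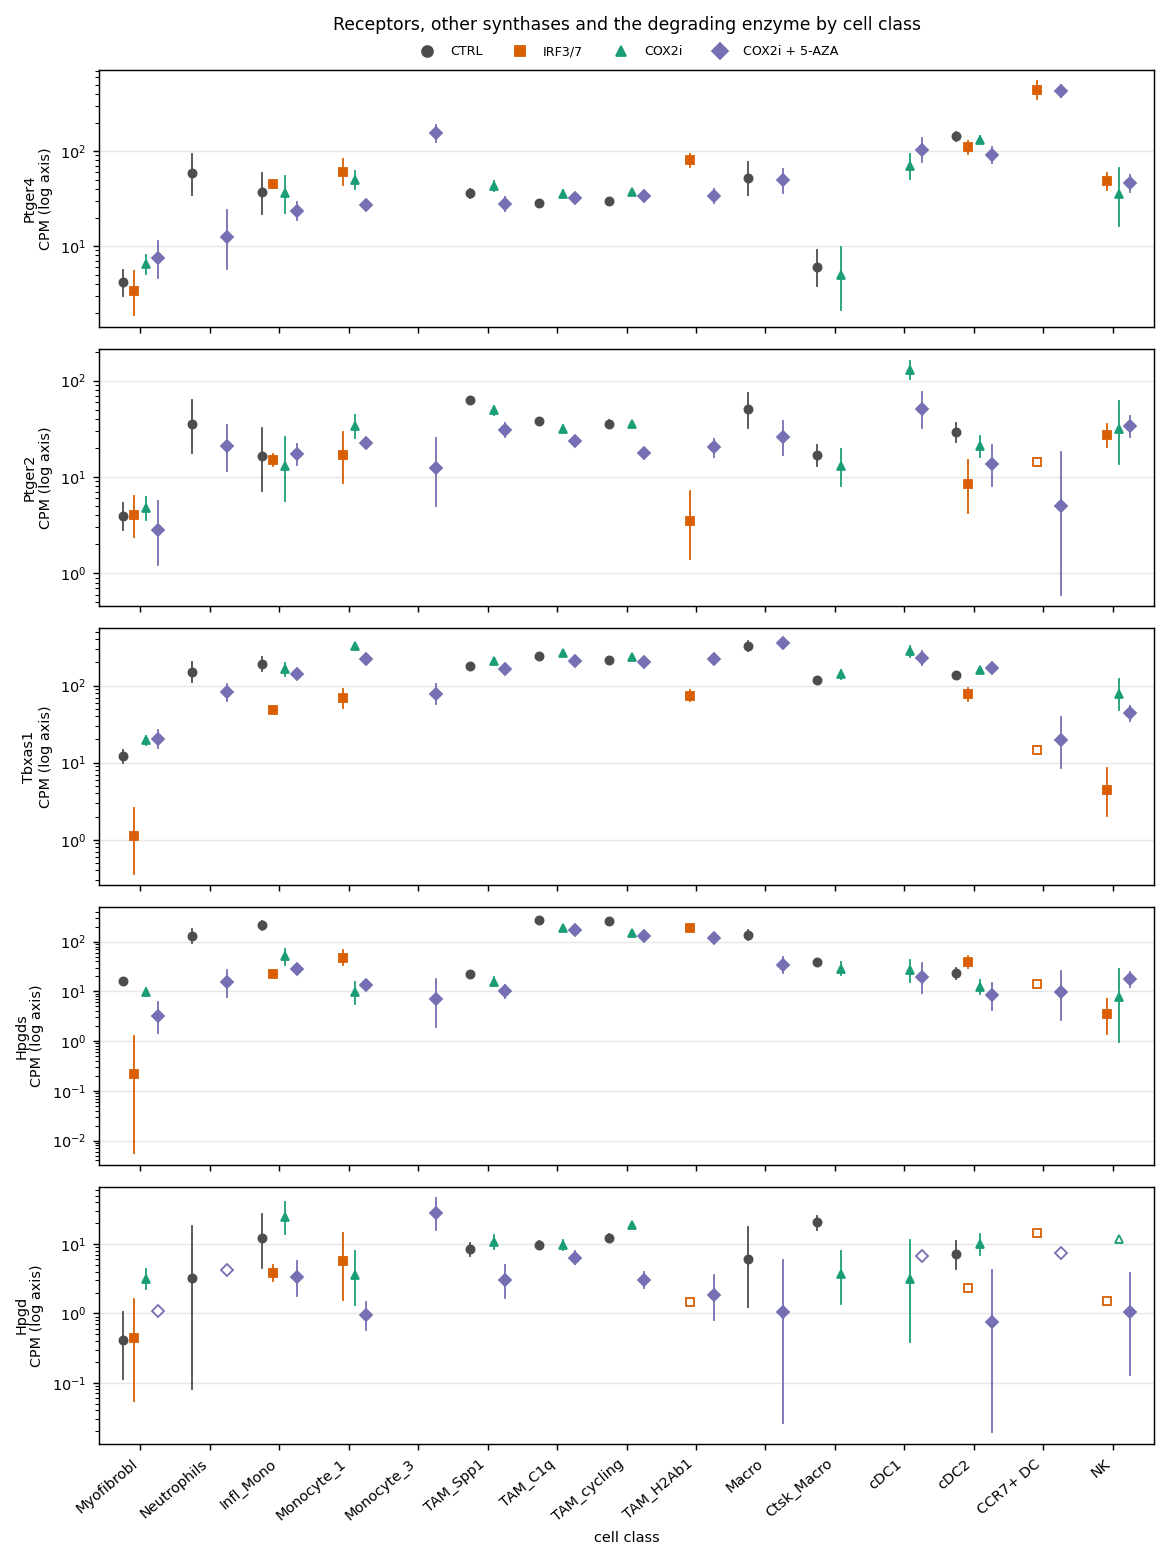
Level of Ptger4, Ptger2, Tbxas1, Hpgds and Hpgd in CPM (log axes) by class and library, with exact 95% counting intervals; open symbols mark 0 UMIs, drawn at the level of 3 UMIs. Ptger4 peaks in CCR7+ DC, where Ptger2 had 0 and 2 UMIs, and Hpgds separates TAM_C1q and TAM_cycling from TAM_Spp1.

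The libraries were then compared in monocytes and macrophages summed, and in Myofibrobl. A gene was counted where the 2 libraries held 20 or more UMIs of it between them, and as past the threshold where it differed 2-fold or more. In the summed population, fewer cells of a class and less mRNA per cell cannot be told apart, and different classes made it up. CTRL had mainly TAM_C1q (3199 cells) and TAM_Spp1 (2347), COX2i TAM_cycling (3164) and TAM_C1q (2023), COX2i + 5-AZA Monocyte_1 (3640), and IRF3/7 Infl_Mono (4335). The comparisons with CTRL share that library, so they are not independent of each other.

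**Figure D5:**
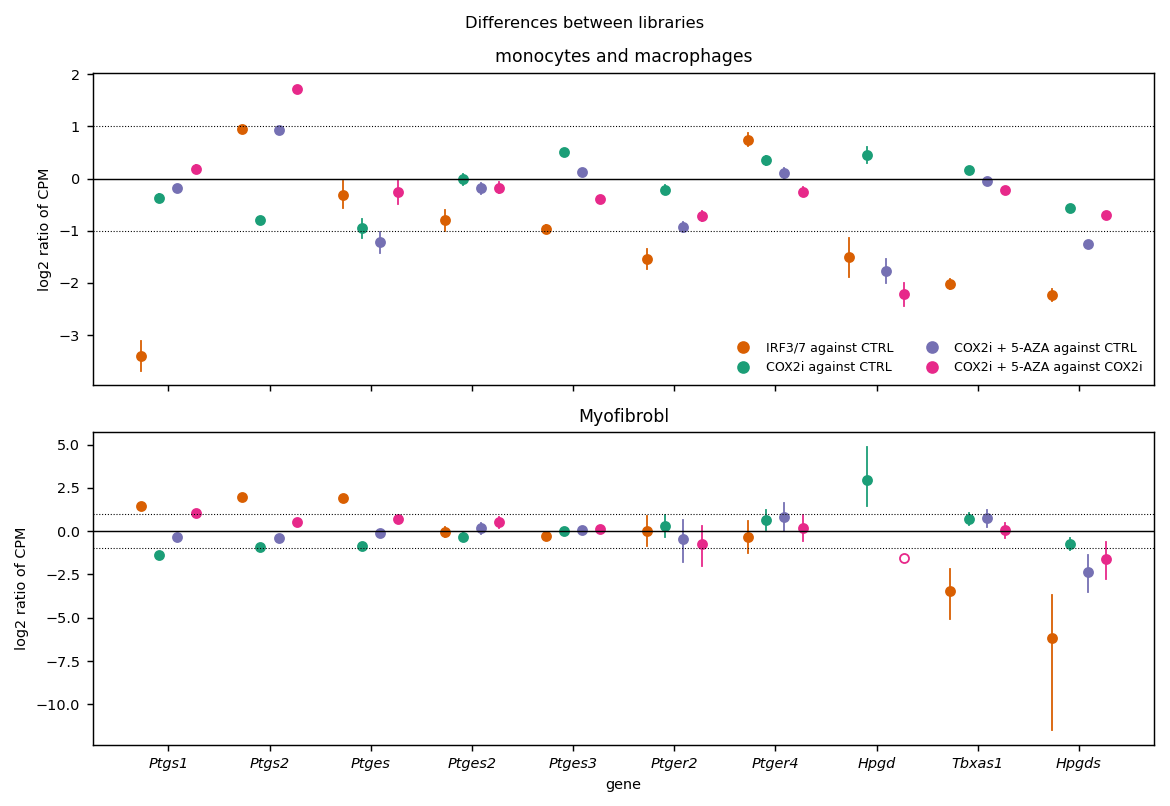
Log2 ratio of CPM between libraries for each gene with 20 or more UMIs between the 2 libraries, in monocytes and macrophages (top) and in Myofibrobl (bottom); lines are exact 95% counting intervals, dotted lines mark 2-fold and the open symbol is an upper limit from 0 UMIs. In monocytes and macrophages Ptgs2 lies below 0 in COX2i against CTRL (-0.79) and above 0 in the other comparisons, and in Myofibrobl Ptgs1, Ptgs2 and Ptges lie on one side of 0 in each comparison.

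COX2i was compared with CTRL to ask whether celecoxib left a mark on the pathway's mRNAs. In monocytes and macrophages 0 members were past 2-fold higher and 0 past 2-fold lower, where 1.93% and 4.7% of all genes were, and the members' median log2 ratio was -0.12 against 0.01 for all genes. Ptges was nearest the threshold, at 5.82 CPM in COX2i and 11.3 CPM in CTRL (log2 ratio -0.96, -1.15 to -0.77), beside the collagen-pathway sums given above. Ptgs2 was lower by class in an uneven way. In TAM_Spp1 it stood at 457 against 857 CPM (-0.91, -0.97 to -0.85), and in TAM_cycling at 84.2 against 104 CPM (-0.30, -0.39 to -0.22). In TAM_C1q it stood at 94.5 against 95.6 CPM (-0.02, -0.11 to 0.08), and in Infl_Mono at 192 against 145 CPM (0.41, -0.03 to 0.85). Among these classes, then, the lower level was clearest in TAM_Spp1, and whether the classes differ was not tested. Hpgds was lower in TAM_C1q (-0.55, -0.61 to -0.49) and TAM_cycling (-0.74, -0.80 to -0.68). Ptger4 was slightly higher in TAM_C1q, TAM_cycling and TAM_Spp1 (0.33, 0.33 and 0.26), beyond counting error, and in cDC2 its interval held 0 (-0.13, -0.33 to 0.07).

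In Myofibrobl, COX2i had lower Ptgs1, Ptgs2 and Ptges than CTRL. Ptgs1 stood at 64.8 against 167 CPM (-1.37, -1.49 to -1.24), Ptgs2 at 457 against 861 CPM (-0.92, -0.97 to -0.87) and Ptges at 172 against 310 CPM (-0.85, -0.93 to -0.77). Of 10 members counted, 1 was past 2-fold lower (Ptgs1), where 1.18% of all genes were, and 1 higher (Hpgd), where 4.54% were. Hpgd rested on 37 UMIs in 18 cells against 4 UMIs in 4 cells (2.93, 1.45 to 4.88). Of the macrophage markers in the class, Fcrls (331 against 171 CPM), Mrc1 (211 against 154 CPM) and C1qa (481 against 388 CPM) were higher too. Apoe was lower (776 against 1663 CPM). The part of such cells in the higher Hpgd was not tested. The phospholipase Pla2g4a, which releases arachidonic acid, stood at 87.2 against 156 CPM (-0.84, -0.95 to -0.72). The class had more cells and shallower ones in COX2i (median 11036 UMIs against 15007.5), and its 4 collagen-pathway markers summed to 19244 CPM against 10508 CPM in CTRL, none at 0. The part of this shift in the lower Ptgs1, Ptgs2 and Ptges was not tested.

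COX2i + 5-AZA was compared with COX2i to see what 5-azacytidine added. Ptgs2 was the 1 member past 2-fold higher in monocytes and macrophages (1.71, 1.68 to 1.75), where 6.16% of all genes were. It was higher within TAM_Spp1 (1108 against 457 CPM, 1.28, 1.21 to 1.34), TAM_C1q (231 against 94.5 CPM, 1.29, 1.20 to 1.38) and TAM_cycling (217 against 84.2 CPM, 1.37, 1.30 to 1.44). In Infl_Mono it stood at 678 against 192 CPM (1.82, 1.56 to 2.10). The difference was smaller in Monocyte_1 (694 against 496 CPM, 0.48, 0.38 to 0.59) and cDC2 (585 against 392 CPM, 0.58, 0.45 to 0.71), and in NK cells the interval held 0 (-0.41, -0.92 to 0.12). The higher Ptgs2 was thus seen within each of the 5 monocyte and macrophage classes given here, besides the larger share of monocytes.

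Hpgd was the 1 member past 2-fold lower in that population, at 3.17 against 14.8 CPM (-2.22, -2.44 to -2.01), where 9.77% of all genes were. Within TAM_cycling it stood at 3.05 against 18.8 CPM (-2.62, -3.05 to -2.23), and within TAM_Spp1 at 2.98 against 10.8 CPM (-1.86, -2.77 to -1.05). Ptger2 was lower in cDC1 (-1.36, -2.09 to -0.68), TAM_cycling (-0.99, -1.17 to -0.81) and TAM_Spp1 (-0.67, -0.95 to -0.39). Ptgs1 was higher in TAM_C1q (0.83, 0.70 to 0.95) and TAM_Spp1 (1.07, 0.77 to 1.38). The members' median was -0.26 against -0.19 for all genes, so the list as a whole stood near the other genes.

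In Myofibrobl, COX2i + 5-AZA exceeded COX2i in Ptgs1 (131 against 64.8 CPM, 1.02, 0.84 to 1.20), the 1 member past 2-fold higher, where 2.98% of all genes were. Ptges (0.72, 0.60 to 0.84) and Ptgs2 (0.52, 0.44 to 0.59) were also higher beyond counting error. Hpgd and Hpgds were past 2-fold lower, where 2.67% of genes were. Hpgd had 0 UMIs against 37, and the floor of 3 counts sets its log2 ratio at -1.57 or below, and Hpgds had 9 UMIs against 114 (-1.61, -2.77 to -0.63). The 4 macrophage markers in the class were lower too, Fcrls at 34.8 against 331 CPM, and their part in the lower Hpgds was not tested.

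Against CTRL, COX2i + 5-AZA had 0 members past 2-fold higher in monocytes and macrophages (5.65% of all genes) and 3 lower (11.3% of all genes). With size factors or in cells with more than 2000 genes 1 member, Ptgs2, was past 2-fold higher, 4 were lower as a mean over cells or in thinned cells, and 2 were lower with the class mix of CTRL. The lower members were Hpgd (-1.77, -2.00 to -1.54), Hpgds (-1.26, -1.31 to -1.22) and Ptges (-1.22, -1.42 to -1.03). The 4 collagen-pathway genes summed to 103 against 248 CPM in the same cells, and their part in the lower Ptges was not tested. Ptgs2 stood at 459 against 242 CPM (0.92, 0.89 to 0.95). It was 2-fold or more higher within Infl_Mono (678 against 145 CPM, 2.23, 1.89 to 2.59, with 93 cells in CTRL), TAM_C1q (1.27, 1.19 to 1.35) and TAM_cycling (1.06, 0.98 to 1.15), but by less in TAM_Spp1 (0.37, 0.32 to 0.42), Macro (0.33, 0.05 to 0.62), cDC2 (0.31, 0.18 to 0.44) and neutrophils (0.31, 0.17 to 0.46). Ptger2 was lower in TAM_C1q (-0.72, -0.91 to -0.54), TAM_Spp1 (-1.02, -1.28 to -0.77) and TAM_cycling (17.9 against 35.9 CPM), whereas Ptger4 differed by less than 0.4 in each. In Myofibrobl 0 members were past 2-fold higher (5.53% of genes) and 1 of the 9 counted was lower (Hpgds, -2.34, -3.50 to -1.38), where 2.16% were. The macrophage markers in the class were lower as well, Fcrls at 34.8 against 171 CPM and Apoe at 233 against 1663 CPM, and their part in this was not tested.

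IRF3/7 was compared with CTRL to ask how forcing these factors in cancer cells changed the pathway's mRNAs. In monocytes and macrophages 0 members were past 2-fold higher (9.16% of all genes) and 5 lower (32.2% of all genes), with a median log2 ratio of -1.24 against -0.55. The 5 were Ptgs1 (5.94 against 62.7 CPM, -3.40, -3.69 to -3.12), Hpgds (43.3 against 203 CPM, -2.23, -2.34 to -2.13), Tbxas1 (52.1 against 213 CPM, -2.03, -2.13 to -1.93), Ptger2 (14 against 40.7 CPM, -1.54, -1.73 to -1.35) and Hpgd (3.81 against 10.8 CPM, -1.51, -1.89 to -1.14). Ptger4 (48.8 against 29.1 CPM, 0.74, 0.62 to 0.86) and Ptgs2 (467 against 242 CPM, 0.95, 0.91 to 0.99) were higher. With scaling by median-of-ratios size factors all genes shift up by 0.51, and Ptges (-0.31) turned to 0.21. The count of members then became 2 higher (Ptgs2, 1.46, and Ptger4, 1.26) and 4 lower, without Hpgd (-0.99), beside 1807 genes higher and 2337 lower of 11793. CTRL had mostly macrophages here and IRF3/7 mostly Infl_Mono. With the class mix of CTRL given to both libraries, Ptgs2 turned to -0.45. That value rests on 6 classes and leaves out TAM_C1q, which had 7 cells in IRF3/7, while TAM_Spp1, Ctsk_Macro and TAM_cycling entered with 10, 13 and 20 IRF3/7 cells.

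Within Infl_Mono, the one class of this population with enough cells in both libraries, Ptgs2 stood at 522 against 145 CPM (1.85, 1.51 to 2.21). Ptgs1 (-3.34, -4.00 to -2.64), Hpgds (-3.26, -3.59 to -2.93) and Tbxas1 (-1.97, -2.28 to -1.64) were lower, while the intervals of Ptger2 and Ptger4 held 0. CTRL had only 93 such cells. In cDC2, Ptgs2 was lower (231 against 473 CPM, -1.03, -1.22 to -0.85). A set of 3 platelet markers that could accompany Ptgs1 and Tbxas1, of which Pf4 was highest in TAM_C1q, summed to 87.4 CPM in monocytes and macrophages of IRF3/7 and 743 to 1762 CPM in the other libraries, with none at 0. The sum mostly reads Pf4, which stood at 1400 CPM over all cells of CTRL, against 45.7 CPM for Ppbp and 3.64 CPM for Itga2b. The part of these markers in the lower Ptgs1 and Tbxas1 was not tested.

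In Myofibrobl the direction of Ptgs1 was the opposite, a difference between classes that was not tested. IRF3/7 exceeded CTRL in Ptgs2 (3436 against 861 CPM, 2.00, 1.96 to 2.04), Ptges (1187 against 310 CPM, 1.93, 1.87 to 2.00) and Ptgs1 (457 against 167 CPM, 1.45, 1.35 to 1.54). These were the 3 of 9 members past 2-fold higher, where 6.07% of all genes were, and 2 were lower, where 12% were, Tbxas1 (5 against 116 UMIs, -3.43, -5.08 to -2.17) and Hpgds (1 against 156 UMIs, -6.18, -11.49 to -3.68). All come from 172 cells of 1 library. Markers of the class differed too: its 4 collagen-pathway genes summed to 7309 CPM in IRF3/7 against 10508 CPM in CTRL, Prrx1 stood at 742 against 334 CPM, Pdgfra at 520 against 291 CPM and Sox9 at 395 against 664 CPM. Their part in the higher Ptgs2, Ptges and Ptgs1 was not tested. The 4 macrophage markers in the class were lower together with Tbxas1 and Hpgds, Fcrls at 0.446 against 171 CPM, and their part in that was not tested.

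Other genes of the pathway were read in the same way. Of 8 genes of arachidonate release in monocytes and macrophages, Pla2g4a, the cytosolic phospholipase that feeds the cyclooxygenases, stood at 82.9 CPM in CTRL, 92.6 CPM in IRF3/7, 113 CPM in COX2i and 180 CPM in COX2i + 5-AZA. It was the 1 past 2-fold higher in COX2i + 5-AZA against CTRL (1.12, 1.07 to 1.17), with 1 lower, Mgll (5 against 19 UMIs), where 5.65% and 11.3% of all genes were. In IRF3/7 against CTRL 0 of the 8 were higher and 3 lower, the phospholipases Pla2g12a (-2.55), Pla2g6 (-1.79) and Pla2g4b (-1.37), where 9.16% and 32.2% of all genes were. Of the other prostanoid receptors, Ptgir, the prostacyclin receptor, was higher than in CTRL in IRF3/7 (13.8 against 3.51 CPM, 1.97, 1.69 to 2.25) and in COX2i + 5-AZA (8.04 CPM, 1.19, 0.95 to 1.44). In Myofibrobl of IRF3/7 it stood at 28.5 against 3.22 CPM (3.15, 2.57 to 3.77), and Ptger1 was also past 2-fold higher there (27 against 29 UMIs, 6.02 against 3.01 CPM). Ptger1, Ptger3, Ptgdr2 and Tbxa2r were sparse, the highest being Ptgdr2 in cDC2 of IRF3/7 at 34.3 CPM. In monocytes and macrophages Ptgdr2 had 19 UMIs in IRF3/7 and 34 in COX2i + 5-AZA against 3 in CTRL. Ptger1 had 21 and Ptger3 29 UMIs in COX2i + 5-AZA, against 6 and 4 in CTRL. The other synthases were counted in IRF3/7 against CTRL with 0 of 3 higher and 2 lower (Akr1b3, -1.18, and Cbr1, -1.14), and in Myofibrobl with Ptgis, prostacyclin synthase, higher (34 against 1 UMIs) and Prxl2b lower (7 against 42 UMIs), where 6.07% and 12% of all genes were and the macrophage markers named above were lower too. Of 6 genes of export, uptake and further breakdown, 1 was higher (Slco2a1, a prostaglandin transporter, 2.15) and 3 lower (Ptgr1, -1.16, Ptgr2, -1.18, and Zadh2, -1.95), in the same comparison and beside the same 9.16% and 32.2%.

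The leukotriene branch uses the same arachidonic acid. In monocytes and macrophages of IRF3/7 against CTRL, 2 of its 8 counted genes were past 2-fold higher and 2 lower, where 9.16% and 32.2% of all genes were. Alox5, the 5-lipoxygenase, stood at 2.07 against 33.6 CPM (-4.02, -4.53 to -3.55) and Ltc4s, leukotriene C4 synthase, at 1.79 against 70.4 CPM (-5.30, -5.85 to -4.80). The receptor genes Ltb4r1 (112 against 46.5 CPM, 1.27) and Cysltr2 (13.4 against 1.9 CPM, 2.81) were higher. COX2i + 5-AZA against CTRL had 3 of 9 higher and 1 lower (5.65% and 11.3% of all genes), with Alox15 at 172 against 13 UMIs, Ltb4r1 at 127 CPM (1.45), Cysltr2 at 7.28 CPM (1.94) and Ltc4s at 19.4 CPM (-1.86), and COX2i against CTRL had 1 higher (1.93% of all genes), Alox15 (42 against 13 UMIs). In both libraries rich in monocytes, Ltb4r1 and Cysltr2 thus stood above CTRL and Ltc4s below it.

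EP2 and EP4 signal through cyclic AMP. Of 18 genes of that pathway, IRF3/7 against CTRL had 2 past 2-fold higher (Adcy4, 2.65, and Pde4b, 1.28) and 8 lower, where 9.16% and 32.2% of all genes were. The lower genes were the adenylyl cyclases Adcy3 (4.48 against 111 CPM, -4.63, -4.97 to -4.31), Adcy6 (-3.01) and Adcy9 (-2.87), the protein kinase A subunits Prkaca (-1.24), Prkacb (-1.76) and Prkar2b (-1.44), and the phosphodiesterases Pde4d (-1.65) and Pde3b (-1.03). Adcy3 was highest in Ctsk_Macro (958 CPM in CTRL), a class of 380 cells in CTRL, 13 in IRF3/7, 157 in COX2i and 37 in COX2i + 5-AZA, and it was lower too in COX2i (-1.92) and COX2i + 5-AZA (-2.50). Of 12 genes known to respond to cyclic AMP, COX2i against CTRL had 0 higher and 2 lower in monocytes and macrophages (1.93% and 4.7% of all genes), Il10 (6.52 against 13.3 CPM, -1.03, -1.21 to -0.85) and Thbs1 (1705 against 3501 CPM, -1.04). Of the 12, 11 were below 0, and their median was -0.56 against 0.01 for all genes. In COX2i + 5-AZA against COX2i, 4 were higher (6.16% of all genes), Nr4a3 (92.8 against 35.6 CPM, 1.38), Areg (36.4 against 15.4 CPM, 1.24), Sik1 (171 against 74.3 CPM, 1.20) and Dusp1 (1.00), and 11 of 12 were above 0, with a median of 0.55 against -0.19. In IRF3/7 against CTRL 3 were higher, Dusp1 (1.90), Sik1 (1.56) and Il10 (1.05), and 0 lower. Many of them respond to other signals too, and Thbs1 and Vegfa were highest in TAM_Spp1, whose share of cells was 26.2% in CTRL and 15.5% in COX2i. The part of that share was not tested. In Myofibrobl of IRF3/7 against CTRL, 5 of 11 were higher (Thbs1, 3.59, Areg, 2.07, Crem, 1.66, Dusp1, 1.47, and Nr4a2, 1.00) and 0 lower, where 6.07% and 12% of all genes in that class were.

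The genes whose pattern was most like that of a member were found by Pearson's r of log2(CPM + 1) over the 40 class and library units, which share libraries and depth, among genes with at least 50 CPM somewhere. For Ptgs2 they were Ier3 (0.88), Ell2 (0.83), Plaur (0.79), Cdkn1a (0.78) and Dusp1 (0.77). For Ptges they were Twist2 (0.92), Ltbp1 (0.91), Cav1 (0.91), Pcolce (0.91) and Igf2bp2 (0.90), and for Ptger4 they were Map3k1 (0.91), Syngr2 (0.89), Rel (0.89), Cd83 (0.88) and Dennd4b (0.87). The gene most like Hpgds was Tbc1d22a (0.88) and the one most like Tbxas1 was Fuca1 (0.91). Of the 50 nearest genes of the 10 members, 13 were again among the nearest over the 26 units of at least 200 cells. These were 3 of 5 for Ptgs2 and Tbxas1, 1 of 5 for Ptges and Hpgds, and 0 of 5 for Ptger4, so most of these neighbours depended on which units were used.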

How the data were processed

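Live CD45+ cells of 4 libraries, 1 per group, were fixed for 22 h and read by probe hybridisation (10x Chromium Flex). The UMI counts were deposited by the authors, who ran Cell Ranger 7.1.0 with an mm10 probe set per the labels and their methods, kept cells with over 1000 genes, under 15% mitochondrial and under 40% ribosomal UMIs, dropped ribosomal and mitochondrial genes, and named classes after Harmony integration. Of 34447 deposited cells, 1201 had 1000 or fewer genes in the table used here. The deposited classes were used as they stand, and no doublet caller was run.

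UMIs were summed by class and library, and divided by all UMIs to give CPM. Intervals are exact at 95% (Poisson for levels, Clopper-Pearson for shares, conditional binomial for ratios) and cover counting error only. A 0 was given a floor of 3 counts. No p-value was computed, as each group has 1 library. Genes with 20 UMIs or more in a pair of libraries were counted as past the threshold at 2-fold. Shares were repeated with cells thinned to 2000 UMIs, which left out 280, 1204, 283 and 707 cells of CTRL, IRF3/7, COX2i and COX2i + 5-AZA. Promoters are from RefSeq (GRCm38.p6) and gene spans from GENCODE, so a RefSeq start can lie inside the printed span, as it does for Ptges. Python 3.11.15, numpy 2.4.6, scipy 1.17.1, pandas 2.3.3 and matplotlib 3.10.9 were used, and the ratio step was tested on simulated data.

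The members and all lists were chosen with earlier results of these data known. The rule for naming took all members, list genes with the highest CPM or past 2-fold in a comparison described, and the 5 genes most like a member, and not every list gene it allows is printed. Ptgds, Ptgdr, Ptgfr, Ptgr3 and Alox12 were among list genes not analysed here. Alternatives were other scaling, cell weights, cell filters, thinning, class mix and UMI minimum.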

Additional observations from a re-analysis of the deposited data

Results flagged for a closer look

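Some members stood 2-fold or more higher in one class and lower in another under the same comparison. Each is 1 library against 1, and none of these differences between classes was tested. In COX2i against CTRL, Hpgd had a log2 ratio of 2.93 in Myofibrobl, beside the macrophage markers given above, and -2.47 in Ctsk_Macro. In COX2i + 5-AZA against COX2i, Ptgs1 was higher in Monocyte_1 (1.02), Myofibrobl (1.02) and TAM_Spp1 (1.07) and lower in Infl_Mono (-1.08). In COX2i only 12 of 394 Monocyte_1 cells and 6 of 130 Infl_Mono cells had a Ptgs1 UMI. In IRF3/7 against CTRL, Ptgs1 was higher in Myofibrobl (1.45) and lower in Infl_Mono (-3.34) and in cDC2 (-2.12, from 4 against 37 UMIs). In the same comparison Ptgs2 was higher in Infl_Mono (1.85, with 93 such cells in CTRL) and Myofibrobl (2.00) and lower in cDC2 (-1.03).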

How the results depend on the processing

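The log2 ratio of Ptgs2 in monocytes and macrophages kept its direction under each alternative except 1. For IRF3/7 against CTRL (0.95) it was 1.46 with size factors, 0.59 as a mean over cells, 0.86 in cells with more than 2000 genes, 0.48 in thinned cells and -0.45 with the class mix of CTRL. For COX2i against CTRL (-0.79) the mean over cells gave -0.90, cells with more than 2000 genes -0.57, thinning -0.91, leaving out the top 5% of cells by UMIs -0.87 and the class mix -0.68. For COX2i + 5-AZA against CTRL (0.92) size factors gave 1.09, the mean 0.69, cells with more than 2000 genes 1.21, thinning 0.70 and the class mix 0.58, and against COX2i (1.71) these gave 1.88, 1.59, 1.78, 1.62 and 1.26, and leaving out the top 5% gave 1.79. Genes past 2-fold numbered 520 with at least 100 UMIs in COX2i against CTRL (789 in the main count) and 1203 with the class mix in COX2i + 5-AZA against COX2i (1902). Size factors moved the share of higher calls from 22.1% to 43.6% in IRF3/7 against CTRL and from 38.6% to 49.6% in COX2i + 5-AZA against COX2i. They put 2 members higher and 4 lower in IRF3/7 against CTRL, and turned the sign of Tbxas1 in monocytes and macrophages of COX2i + 5-AZA against CTRL (-0.05 to 0.12) and, in Myofibrobl of IRF3/7 against CTRL, of Ptges2 (-0.07 to 0.22) and Ptges3 (-0.27 to 0.02). Over all cells, leaving out Myofibrobl turned Ptgs1 from 0.11 to -3.47 and Ptges from 1.97 to -0.33 in IRF3/7 against CTRL, and Tbxas1 from 0.09 to -0.064 in COX2i + 5-AZA against CTRL. Beyond what each alternative itself changes, the cause was not tested. In Myofibrobl, alternatives chosen after seeing the data (28 values each) reversed none of Ptgs1, Ptgs2 or Ptges. The class with the highest level was the same for 10 of 10 members, and that with the highest thinned share for 7 of 10. No paired analysis was possible because each group has 1 library.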
